A study of Mus musculus with 4 samples.

Results

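Expression of 10 genes of mammary alveolar progenitors and of milk was followed in 3D-cultured mouse mammary cells that received baicalin, the main flavonoid of Scutellaria roots. The 10 genes were chosen by name, for their known roles, out of 54446 genes in the deposited table. Earlier results of these data were known when they were chosen. They are the progenitor genes Elf5, Kit and Aldh1a3, the milk protein genes Csn1s1, Csn2, Csn3, Wap and Lalba, and the genes Ltf and Xdh, whose products are secreted into milk but are also made outside lactation. Cells from the mammary gland of wild type C57BL/6 mice were sorted by FACS and labelled basal or luminal. They were embedded in Matrigel and grown with either DMSO, as the control, or 100 μM baicalin. The methods say that baicalin was dissolved in saline, and do not say whether the baicalin cultures also held DMSO. RNA of each of the 4 conditions was sequenced as 1 library, so there are no replicates, and baicalin cannot be told apart from any other difference between the cultures. The study's methods describe a medium with insulin, transferrin, selenium and EGF, and name no prolactin or glucocorticoid in it. The methods name young virgin females, or females at other stages, as the source of mammary glands, and do not say which of these gave these libraries or how many mice were pooled.

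The labels of the libraries went against their basal and luminal keratin markers, while markers of hormone-sensing luminal cells were mixed. All 10 of 10 basal markers were higher in the luminal-labelled than in the basal-labelled library, both in DMSO and in baicalin. Their summed level was 1761 FPKM in the basal-labelled DMSO library, 479 FPKM in the basal-labelled baicalin library, 5404 FPKM in the luminal-labelled DMSO library and 7199 FPKM in the luminal-labelled baicalin library. FPKM is the count of sequenced fragments of a gene corrected for the length of its exons and for the depth of the library. The summed level of 10 luminal keratin and epithelial genes ran the other way, at 4763, 3381, 1592 and 1404 FPKM in the same order of libraries. Of 10 hormone-sensing luminal markers, 5 were higher in the luminal-labelled DMSO library, among them Pgr (4.81 against 1.08 FPKM) and Cited1 (7.36 against 0.0574 FPKM), and others, such as Areg (21.4 against 63.2 FPKM), were lower. The groups are called basal-labelled and luminal-labelled throughout, and no direction between them is read as a direction between cell types. The libraries held between 19356050 and 20648777 fragments. Intervals on ratios below are 95% exact Clopper-Pearson intervals on these fragments. They cover counting error only, not the spread between cultures.

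Milk is made by alveolar cells, which arise in pregnancy from luminal progenitors. Elf5 is an ETS family transcription factor that directs this alveolar fate, Kit is the receptor for stem cell factor on luminal progenitors, and Aldh1a3 oxidises retinal to retinoic acid and gives progenitors much of their aldehyde dehydrogenase activity. Prolactin acts through its receptor and JAK2 on STAT5, which binds the promoters of casein genes and, together with glucocorticoids, switches on milk protein synthesis. Csn1s1, Csn2 and Csn3 encode caseins, Wap encodes the whey acidic protein, and Lalba encodes alpha-lactalbumin, the cofactor of lactose synthesis.

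The promoters of Csn1s1, Csn2, Elf5 and Kit are shown because they set a casein gene that was read in these cultures beside one that was hardly read, and both beside a pair of progenitor genes. Each sequence is the 250 bases before the transcription start in RefSeq on GRCm38.p6, written 5′ to 3′ along the strand of the gene, and capitals mark the letters that match the STAT5 site TTCNNNGAA, which reads the same on both strands. Csn1s1 lies at chr5:87665958-87666207 on the plus strand, Csn2 at chr5:87699426-87699675 on the minus strand, Elf5 at chr2:103411848-103412097 on the plus strand and Kit at chr5:75574737-75574986 on the plus strand. The gene positions given below come from another annotation, GENCODE. By those positions the Elf5 stretch lies inside the gene, and the Csn2 and Kit stretches overlap their genes. Further start sites of Elf5 and Kit are not shown.
Csn1s1: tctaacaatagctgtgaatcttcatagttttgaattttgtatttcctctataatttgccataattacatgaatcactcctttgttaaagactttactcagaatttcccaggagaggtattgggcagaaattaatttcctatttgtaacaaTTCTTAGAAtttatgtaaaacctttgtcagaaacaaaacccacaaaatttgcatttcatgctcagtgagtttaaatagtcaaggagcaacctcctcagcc
Csn2: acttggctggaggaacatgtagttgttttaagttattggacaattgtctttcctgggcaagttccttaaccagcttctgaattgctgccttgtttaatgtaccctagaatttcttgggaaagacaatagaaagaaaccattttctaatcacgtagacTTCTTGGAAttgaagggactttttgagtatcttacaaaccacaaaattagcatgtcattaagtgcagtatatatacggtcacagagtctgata
Elf5: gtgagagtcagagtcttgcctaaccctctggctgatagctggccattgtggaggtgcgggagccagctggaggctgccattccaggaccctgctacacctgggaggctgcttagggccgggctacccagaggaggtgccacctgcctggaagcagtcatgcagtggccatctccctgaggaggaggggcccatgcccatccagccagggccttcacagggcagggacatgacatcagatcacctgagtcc
Kit: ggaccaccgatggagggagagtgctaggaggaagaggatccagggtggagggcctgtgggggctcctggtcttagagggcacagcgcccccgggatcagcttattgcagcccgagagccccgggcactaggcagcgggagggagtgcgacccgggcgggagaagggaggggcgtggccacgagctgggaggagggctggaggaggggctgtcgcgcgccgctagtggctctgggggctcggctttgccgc

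Promoters were matched for 7 of the 10 genes, with 9 start sites, and those of Csn3, Aldh1a3 and Xdh were not analysed here. The STAT5 site was found in Csn1s1 as TTCTTAGAA, starting 100 bases before the transcription start, and in Csn2 as TTCTTGGAA, starting 93 bases before it. Of all 32851 promoters of this length, 7.02% held this site. The sequence AGGAAG, a form of the ETS site, was found on either strand in 4 genes, Kit, Wap, Lalba and Ltf, and in 29.5% of all promoters. Other forms of the ETS site were not searched. The glucocorticoid receptor half-site TGTTCT, searched on both strands, was found in 0 of the 7 genes and in 16.1% of all promoters. No STAT5 match overlapped a match to another of the searched motifs. Csn1s1, Csn2 and Csn3 lie in the casein cluster on chromosome 5, which spans 266 kb from the start of Csn1s1 to the end of Csn3.

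The 10 genes covered a wide range of levels. Aldh1a3 had the highest FPKM of the 10 genes in each of the 4 libraries and Xdh the second, while Wap was at 0 fragments in all 4. In the basal-labelled DMSO library the order continued with Elf5, Kit, Ltf, Csn3, Csn1s1 and Lalba, and the 95% intervals of neighbours in this order did not overlap. In the luminal-labelled DMSO library the intervals of Kit, at 6.59 FPKM, and Elf5, at 6.51 FPKM, overlapped. In the luminal-labelled baicalin library those of Elf5 and Ltf overlapped, and so did those of neighbours among Lalba, Csn1s1 and Csn3. The FPKM were computed on all exons of a gene together, and this summed length was 4.43 times the longest principal transcript for Csn1s1, 5.21 times for Csn2, 2.60 times for Csn3 and 2.32 times for Elf5. Lalba, with 1 annotated transcript, had a factor of 1. The level per full-length transcript is therefore understated most for the caseins, and the order between genes holds on the scale of summed exons. Ratios of 1 gene between libraries do not depend on this length, but log2 changes with 1 FPKM added to each value do. Aldh1a3 was higher than 94.8% to 99.0% of tested genes.

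**Figure D1:**
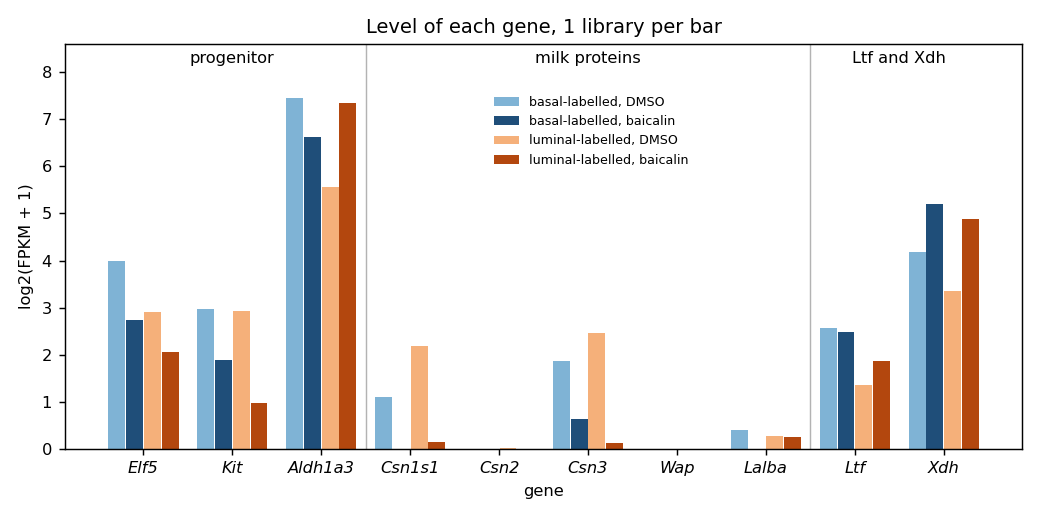
Level of each of the 10 genes as log2(FPKM + 1) (y axis), 1 bar per library and no replicates, coloured by label and treatment. Aldh1a3 and Xdh have the tallest bars in every library, and Csn1s1 and Csn3 lie lower in both baicalin libraries than in both DMSO libraries.

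Elf5 was lower with baicalin under both labels. The gene lies on chromosome 2 at 103411688 to 103450989 on the plus strand (GRCm38, ENSMUSG00000027186). Its level was 14.9 FPKM (1734 fragments) in the basal-labelled DMSO library and 5.63 FPKM (671 fragments) with baicalin. In the luminal-labelled libraries it was 6.51 FPKM (741 fragments) in DMSO and 3.18 FPKM (386 fragments) in baicalin. Both baicalin libraries were lower than both DMSO libraries. Elf5 was thus 2.64-fold lower in the basal-labelled library with baicalin (interval 2.41 to 2.89) and 2.05-fold lower in the luminal-labelled one (interval 1.81 to 2.32). On the scale log2((FPKM + 1)/(FPKM + 1)), on which changes are given from here and which understates those of low genes, these were -1.26 and -0.85. The study reports the other direction for basal cells, with Elf5 among the genes raised by baicalin in sequencing and in RT-qPCR. Why the deposited libraries differ from that report was not tested. In bulk RNA, fewer Elf5-positive cells and less Elf5 RNA per cell cannot be told apart, and this holds for each gene described.

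Kit was also lower with baicalin under both labels, and by more in the luminal-labelled pair. Kit lies on chromosome 5 at 75574916 to 75656722 on the plus strand (ENSMUSG00000005672). Its level was 6.83 FPKM (1208 fragments) in the basal-labelled DMSO library and 2.72 FPKM (491 fragments) with baicalin. The luminal-labelled libraries gave 6.59 FPKM (1136 fragments) in DMSO and 0.957 FPKM (176 fragments) in baicalin. Kit started from like levels in both DMSO libraries, with a luminal-labelled to basal-labelled ratio of 0.965 whose interval, 0.889 to 1.05, includes 1. It was 2.51-fold lower with baicalin in the basal-labelled pair (interval 2.26 to 2.80, log2 change -1.07) and 6.89-fold lower in the luminal-labelled pair (interval 5.87 to 8.12, log2 change -1.96). Whether this difference between labels exceeds the spread between cultures was not tested. Kit is also a mast cell gene, and 8 of 10 mast cell markers, among them Cpa3, Mcpt4 and Fcer1a, were at 0 in all 4 libraries. Their summed level did not exceed 0.091 FPKM in any library.

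Aldh1a3 went in opposite directions under the 2 labels. The gene lies on chromosome 7 at 66390890 to 66427517 on the minus strand (ENSMUSG00000015134). In the basal-labelled libraries it was 173 FPKM (15848 fragments) in DMSO and 97.8 FPKM (9162 fragments) in baicalin. In the luminal-labelled libraries it was 46.4 FPKM (4147 fragments) in DMSO and 163 FPKM (15505 fragments) in baicalin. The luminal-labelled DMSO library stood apart as the lowest, and the luminal-labelled baicalin library came close to the basal-labelled DMSO library. The ratio of baicalin to DMSO was 0.566 (interval 0.551 to 0.581, log2 change -0.82) in the basal-labelled pair and 3.50 (interval 3.39 to 3.63, log2 change 1.79) in the luminal-labelled pair. Aldh1a3 thus parted from Elf5 and Kit, the other progenitor genes, in the luminal-labelled pair. The summed level of 15 other luminal progenitor markers was 613, 767, 209 and 293 FPKM in the basal-labelled DMSO, basal-labelled baicalin, luminal-labelled DMSO and luminal-labelled baicalin libraries. Prom1, among these 15, also stands in the list of hormone-sensing luminal markers, and was 12.7, 3.72, 1.79 and 2.06 FPKM in this order. The higher sums with baicalin came from Cldn4, a tight junction gene, and the other 14 markers summed to 340, 292, 163 and 156 FPKM. The part of these markers in the values of Aldh1a3 was not tested.

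Milk protein transcripts were scarce in every library and scarcest in baicalin. Fragments of Csn1s1, Csn2, Csn3, Wap and Lalba together numbered 366 in the basal-labelled DMSO library, 46 with baicalin, 800 in the luminal-labelled DMSO library and 24 with baicalin. The summed FPKM of the 5 genes were 4.13, 0.546, 8.31 and 0.383. Csn3 and Csn1s1 together gave 361, 46, 796 and 21 of these fragments.

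Csn3, the kappa-casein gene that stabilises casein micelles, lies on chromosome 5 at 87925579 to 87932665 on the plus strand (ENSMUSG00000001622). It was 2.67 FPKM (220 fragments) in the basal-labelled DMSO library and 0.546 FPKM (46 fragments) with baicalin. The luminal-labelled DMSO library held 4.54 FPKM (365 fragments) and the luminal-labelled baicalin library 0.0933 FPKM (8 fragments). Csn3 was thus lower in both baicalin libraries than in both DMSO libraries. It was 4.89-fold lower with baicalin in the basal-labelled pair (interval 3.54 to 6.87) and 48.7-fold lower in the luminal-labelled pair (interval 24.4 to 114). With 1 FPKM added to each value these became log2 changes of -1.25 and -2.34.

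Csn1s1, the alpha-S1-casein gene, lies on chromosome 5 at 87666208 to 87682578 on the plus strand (ENSMUSG00000070702). It was 1.14 FPKM (141 fragments) in the basal-labelled DMSO library and was not detected with baicalin, at 0 fragments. The luminal-labelled libraries gave 3.56 FPKM (431 fragments) in DMSO and 0.101 FPKM (13 fragments) in baicalin. As for Csn3, both DMSO libraries lay above both baicalin libraries. Csn1s1 was at least 48.0-fold lower with baicalin in the basal-labelled pair, taking 3 fragments as the most that a count of 0 allows. This bound takes the 141 DMSO fragments as exact, so it is less cautious than the intervals given for other ratios. In the luminal-labelled pair Csn1s1 was 35.4-fold lower (interval 20.5 to 67.0).

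The other milk protein genes were at or near the limit of detection at this depth. Csn2, the beta-casein gene, lies on chromosome 5 at 87692624 to 87699630 on the minus strand (ENSMUSG00000063157) and had 1 fragment in the luminal-labelled DMSO library, 0.0075 FPKM, and 0 in the other libraries. Wap lies on chromosome 11 at 6635482 to 6638637 on the minus strand (ENSMUSG00000000381), and its 0 fragments allow at most between 0.144 and 0.154 FPKM, depending on the library. Lalba lies on chromosome 15 at 98480400 to 98482721 on the minus strand (ENSMUSG00000022991) and had 5 fragments in the basal-labelled DMSO library, 0 with baicalin, and 3 in each luminal-labelled library. These numbers do not allow a change of Csn2, Wap or Lalba to be read. Csn1s1 and Csn2 both carry the STAT5 site shown above, and they differed widely in level in DMSO, at 431 fragments against 1 in the luminal-labelled library over summed exons of 6247 and 6926 bases.

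Ltf and Xdh did not share the lower levels of the caseins in baicalin. Ltf encodes lactoferrin, the iron-binding protein of milk, which is also stored in the granules of neutrophils, and lies on chromosome 9 at 111019271 to 111042767 on the plus strand (ENSMUSG00000032496). It was 4.93 FPKM (338 fragments) in the basal-labelled DMSO library and 4.60 FPKM (322 fragments) with baicalin. The luminal-labelled libraries gave 1.57 FPKM (105 fragments) in DMSO and 2.64 FPKM (188 fragments) in baicalin. In the basal-labelled pair the ratio of 0.932 did not differ from 1 beyond counting error (interval 0.798 to 1.09, log2 change -0.08), and in the luminal-labelled pair Ltf was 1.68-fold higher with baicalin (interval 1.31 to 2.15, log2 change 0.50). Of 10 neutrophil markers, Ngp, Mpo, Ly6g, Retnlg and Csf3r were at 0 in all 4 libraries. The summed level of the 10 was 1.64, 1.41 and 1.02 FPKM in the first 3 conditions and 9.24 FPKM in the luminal-labelled baicalin library, where 7 of 10 were at 0, and its part in the level of Ltf was not tested.

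Xdh was higher with baicalin under both labels. It encodes xanthine oxidoreductase, which acts in purine breakdown and, in lactation, takes part in wrapping milk fat globules in membrane. Xdh lies on chromosome 17 at 73883895 to 73950196 on the minus strand (ENSMUSG00000024066). Its level was 17.1 FPKM (3111 fragments) in the basal-labelled DMSO library and 35.6 FPKM (6631 fragments) with baicalin. In the luminal-labelled libraries it was 9.23 FPKM (1639 fragments) in DMSO and 28.5 FPKM (5404 fragments) in baicalin. Both baicalin libraries lay above both DMSO libraries, the reverse of Elf5, Kit, Csn3 and Csn1s1. Xdh was 2.09-fold higher in the basal-labelled pair (interval 1.999 to 2.18, log2 change 1.02) and 3.09-fold higher in the luminal-labelled pair (interval 2.92 to 3.27, log2 change 1.53). Of the 9175 exon bases of Xdh, runs of 200 bases or more recur in 19 other genes at 95% identity or more, the longest of 463 bases. A part of the Xdh fragments may therefore have been assigned to those genes or left out in counting. None of the other 9 genes shares such a stretch.

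**Figure D2:**
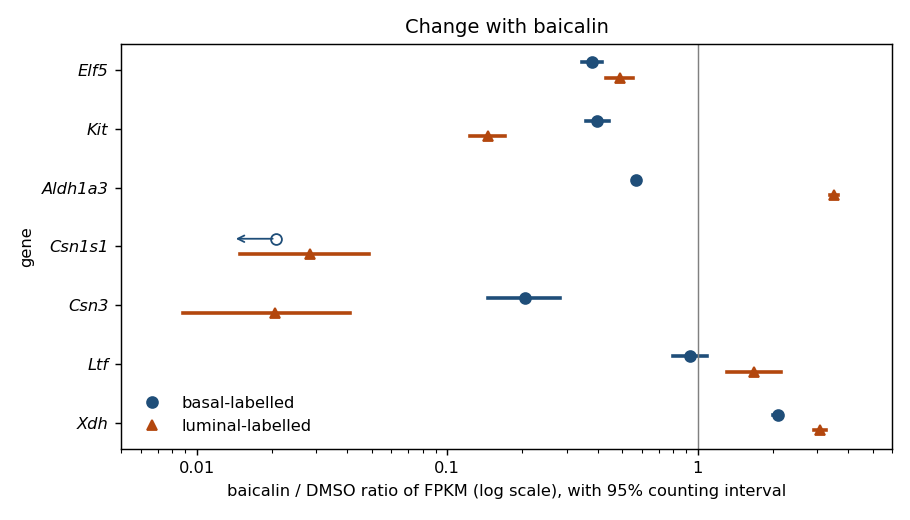
Ratio of FPKM in baicalin to FPKM in DMSO (x axis, log scale) for 7 of the genes, without Csn2, Wap and Lalba, with 95% exact intervals that cover counting error only. The open circle with an arrow is the bound for Csn1s1, at 0 fragments in the basal-labelled baicalin library. Elf5, Kit, Csn3 and Csn1s1 lie below 1 under both labels, Xdh lies above 1 under both, and Aldh1a3 lies on opposite sides of 1.

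Of the 10 genes, 6 had an FPKM above 0 in all 4 libraries and were compared with the 17787 genes that did too. Csn1s1 did not enter because it was at 0 in the basal-labelled baicalin library, and Csn2, Wap and Lalba had a library at 0 as well. In the basal-labelled pair, 3 of the 6 genes, Csn3, Elf5 and Kit, had a log2 change with baicalin below -1, where 3.33% of all tested genes were, and 1, Xdh, was higher by more than 1, where 2.15% of tested genes were. The median log2 change of the 6 genes was -0.94, beside 0.01 over all tested genes. In the luminal-labelled pair, Csn3 and Kit were lower by more than 1, beside 1.59% of all tested genes, and Aldh1a3 and Xdh were higher by more than 1, beside 2.37%. There the median log2 change of the 6 was -0.17, beside -0.02 over all genes. Elf5 passed this threshold in the luminal-labelled pair only with a smaller pseudocount. The 6 genes were chosen by name, with earlier results of these data known, and each pair is 1 library against 1. These shares are therefore a description and not a test. In the basal-labelled pair the summed level of basal markers also went from 1761 to 479 FPKM with baicalin, with 9 of the 10 lower. In the luminal-labelled pair the sum went from 5404 to 7199 FPKM, with keratins such as Krt17 (358 to 1140 FPKM) higher, while 5 of the 10, among them Oxtr (19.4 to 3.61 FPKM) and Tagln (97.6 to 47.2 FPKM), were lower. The part of these markers in the values of the 10 genes was not tested.

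**Figure D3:**
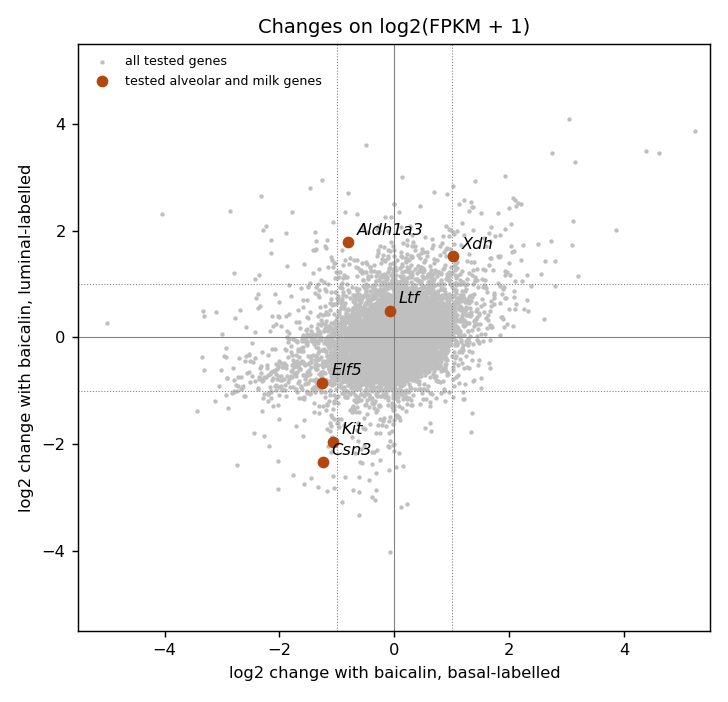
Log2 change with baicalin in the basal-labelled pair (x axis) against that in the luminal-labelled pair (y axis) for the 6 tested genes (large points) and all 17787 tested genes (grey), each from 1 library against 1, with dotted lines at 1 and -1. Xdh is positive and Csn3, Kit and Elf5 are negative on both axes, and Aldh1a3 is at -0.82 on x and 1.79 on y.

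Between the labels, 3 of the 6 tested genes were lower by more than 1 in log2 units in the luminal-labelled than in the basal-labelled DMSO library, where 3.86% of all tested genes were. They were Aldh1a3 at -1.88, Ltf at -1.21 and Elf5 at -1.08. None of the 6 was higher there by more than 1, where 4.71% of tested genes were. The median of the 6 was -0.95, beside 0.01 over all genes. The caseins stood the other way round. Csn1s1 was 3.14-fold higher (interval 2.59 to 3.82) and Csn3 1.70-fold higher (interval 1.44 to 2.02) in the luminal-labelled DMSO library, whereas Xdh was at a ratio of 0.540 (interval 0.509 to 0.574). The genes that were lower there were thus higher in the library with more luminal keratin transcripts and fewer basal marker transcripts. Hormone-sensing luminal markers were mixed between these libraries, and the part of any of these markers in the differences was not tested.

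Between the baicalin libraries, 0 of the 6 genes differed by more than 1 in either direction, beside 5.24% of all tested genes that were higher and 2.99% that were lower in the luminal-labelled library. The median of the 6 was -0.56, beside -0.03 over all genes. Aldh1a3 was now 1.66-fold higher in the luminal-labelled library (interval 1.62 to 1.71), the reverse of its order in DMSO. Csn3 had turned as well, with a luminal-labelled to basal-labelled ratio of 0.171 (interval 0.0696 to 0.366), on 8 against 46 fragments. Kit stood at a ratio of 0.352 (interval 0.295 to 0.419), Elf5 at 0.565 (interval 0.497 to 0.641), Ltf at 0.574 (interval 0.477 to 0.689) and Xdh at 0.801 (interval 0.772 to 0.830). These small ratios of Csn3 and Kit stay within 1 on the log2 scale because of the added 1 FPKM.

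The genes that act around the 10 were read from lists written from general knowledge, with earlier results of these data known. Their directions stand beside those of all tested genes, of which 49.1% were lower with baicalin in the basal-labelled pair and 54.4% in the luminal-labelled pair. Of 18 tested genes of the prolactin to STAT5 pathway, 10 were higher and 8 lower with baicalin in the basal-labelled pair, with a median log2 change of 0.07, and 8 were higher and 10 lower in the luminal-labelled pair, with a median of -0.06. Prlr, the prolactin receptor, was 6.50 FPKM in the basal-labelled DMSO library and 1.60 FPKM with baicalin, and 2.40 FPKM in the luminal-labelled DMSO library and 0.688 FPKM with baicalin. It was thus lower with baicalin by 4.06-fold and 3.48-fold, and it was the one gene of this list with a log2 change below -1 under each label. Stat5a, which carries the signal to milk genes, differed less, at 3.04 and 4.07 FPKM in the basal-labelled pair and 4.14 and 3.16 FPKM in the luminal-labelled pair. Socs2, a feedback inhibitor of this pathway, was 5.14 and 11.7 FPKM in the basal-labelled pair and 3.60 and 4.84 FPKM in the luminal-labelled pair. The receptor therefore kept the direction of Elf5 and the caseins, while the list as a whole lay near the median of all genes.

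Of 15 tested alveolar and luminal transcription factors, 12 were lower and 3 higher with baicalin in the luminal-labelled pair, where 54.4% of all tested genes were lower, with a median of -0.21, against 7 lower and 8 higher in the basal-labelled pair, with a median of 0.06. Hey1, a Notch target of luminal progenitors, was 7.81 and 0.785 FPKM in basal-labelled DMSO and baicalin, and 15.8 and 5.44 FPKM in the luminal-labelled libraries. Foxa1, a partner of the oestrogen receptor in hormone-sensing cells, was 1.80 and 1.35 FPKM in the basal-labelled pair and 9.30 and 1.09 FPKM in the luminal-labelled pair. Tspan8, a surface protein among the luminal progenitor markers, was 15.0 and 13.8 FPKM in the basal-labelled pair and 42.2 and 9.59 FPKM in the luminal-labelled pair. Hey1 thus was lower under both labels, as Elf5 and Kit were, and Foxa1 and Tspan8 differed by more than 1 on the log2 scale in the luminal-labelled pair alone. Of the 14 tested luminal progenitor markers, 6 were higher and 8 lower in the basal-labelled pair, with a median of -0.08, and 10 were higher and 4 lower in the luminal-labelled pair, with a median of 0.13.

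Around Kit, none of 12 tested genes of its ligand and signalling differed by more than 1 with baicalin, and 11 of the 12 were lower in the luminal-labelled pair, with a median of -0.14, against 8 of 12 in the basal-labelled pair, with a median of -0.06. Over all tested genes 54.4% and 49.1% were lower in these pairs, and 3.95% and 5.48% differed by more than 1 in either direction. Kitl, which encodes stem cell factor, the ligand of Kit, was 12.2 and 12.4 FPKM in the basal-labelled pair and 36.2 and 19.4 FPKM in the luminal-labelled pair. Pik3r1, the regulatory subunit of PI3 kinase that binds Kit, was 26.3 and 39.6 FPKM, and 30.7 and 19.4 FPKM. Ligand and receptor were both lower with baicalin in the luminal-labelled pair, where Kitl was 1.87-fold lower, while in the basal-labelled pair Kit was lower and Kitl had a ratio of 1.01 (interval 0.943 to 1.09).

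Around Aldh1a3, 14 genes of retinoic acid synthesis and response and of related aldehyde oxidation had a median of -0.04 in the basal-labelled pair, with 5 higher and 9 lower, and of -0.03 in the luminal-labelled pair, with 6 higher and 8 lower. Aldh1a1, which catalyses the same step as Aldh1a3, stayed far below it, at 0.112, 0.030, 4.00 and 1.73 FPKM in basal-labelled DMSO, basal-labelled baicalin, luminal-labelled DMSO and luminal-labelled baicalin. Aldh3a1, a dehydrogenase of other aldehydes, was 65.7, 254, 24.2 and 206 FPKM in this order, 3.86-fold higher with baicalin in the basal-labelled pair and 8.48-fold higher in the luminal-labelled pair. Aldh3a1 was thus higher under both labels, unlike Aldh1a3.

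Around Xdh, 9 genes of purine breakdown had medians of -0.18 and 0.02 in the basal-labelled and luminal-labelled pairs, with 3 and 5 genes higher and 6 and 4 lower. Ampd3, which deaminates AMP, was 9.61, 47.9, 2.40 and 18.1 FPKM in the order used above, 4.98-fold and 7.56-fold higher with baicalin. Nt5e, the ectoenzyme CD73 that makes adenosine from AMP, was 54.8, 26.3, 14.5 and 39.8 FPKM. Ampd3 thus shared the direction of Xdh under both labels, and Nt5e that of Aldh1a3.

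The partners of Xdh in the milk fat globule did not keep one direction. Of 16 tested genes of the milk fat globule and of lipid synthesis, 9 were higher and 7 lower in the basal-labelled pair, with a median of 0.06, and 7 were higher and 9 lower in the luminal-labelled pair, with a median of -0.04. Btn1a1, the butyrophilin that binds Xdh at the membrane, was 4.33, 11.4, 9.93 and 3.93 FPKM, 2.63-fold higher with baicalin in the basal-labelled pair and 2.53-fold lower in the luminal-labelled pair. Plin2, the coat protein of lipid droplets, was 84.4, 208, 49.2 and 77.2 FPKM, higher by 2.46-fold and 1.57-fold. Plin2 therefore went with Xdh under both labels, and Btn1a1 did so in the basal-labelled pair. Adipocyte markers, which bear on lipid genes, summed to 0.105, 0.409, 6.93 and 1.37 FPKM, and their part in these values was not tested.

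Of 11 tested genes of other secreted milk and whey proteins, 7 were lower in the basal-labelled pair (median -0.42), beside 49.1% of all tested genes, and 8 in the luminal-labelled pair (median -0.38), beside 54.4%. Muc1, a mucin of the milk fat globule membrane, was 7.94, 0.672, 2.18 and 1.45 FPKM and thus 11.8-fold lower with baicalin in the basal-labelled pair. Saa3, an acute phase protein secreted into milk, was 5.35, 3.52, 0.238 and 14.0 FPKM, with its highest level in the luminal-labelled baicalin library, the same library in which the summed neutrophil markers were highest. Of 13 tested genes of lactose synthesis and alveolar transport, 10 were lower in the basal-labelled pair (median -0.14) and 5 in the luminal-labelled pair (median 0.17). B4galt1, the enzyme that Lalba turns to lactose synthesis, was 28.9, 24.6, 24.1 and 25.8 FPKM, a narrow range beside the near absence of Lalba. Aqp5, a water channel, was 46.0, 29.5, 18.5 and 4.10 FPKM, and Hk2, a hexokinase, was 10.01, 16.8, 4.22 and 12.7 FPKM.

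Genes that turn on when the gland regresses after weaning had no common direction, with 6 of 12 higher in the basal-labelled pair (median -0.04) and 5 of 12 in the luminal-labelled pair (median -0.18). Igfbp5, which binds insulin-like growth factors, was 211, 70.3, 749 and 111 FPKM, 3.01-fold and 6.76-fold lower with baicalin. Mmp3, the protease stromelysin, was 32.2, 6.02, 9.49 and 43.5 FPKM, lower in the basal-labelled pair and higher in the luminal-labelled pair, the order of signs also seen for Aldh1a3.

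**Figure D4:**
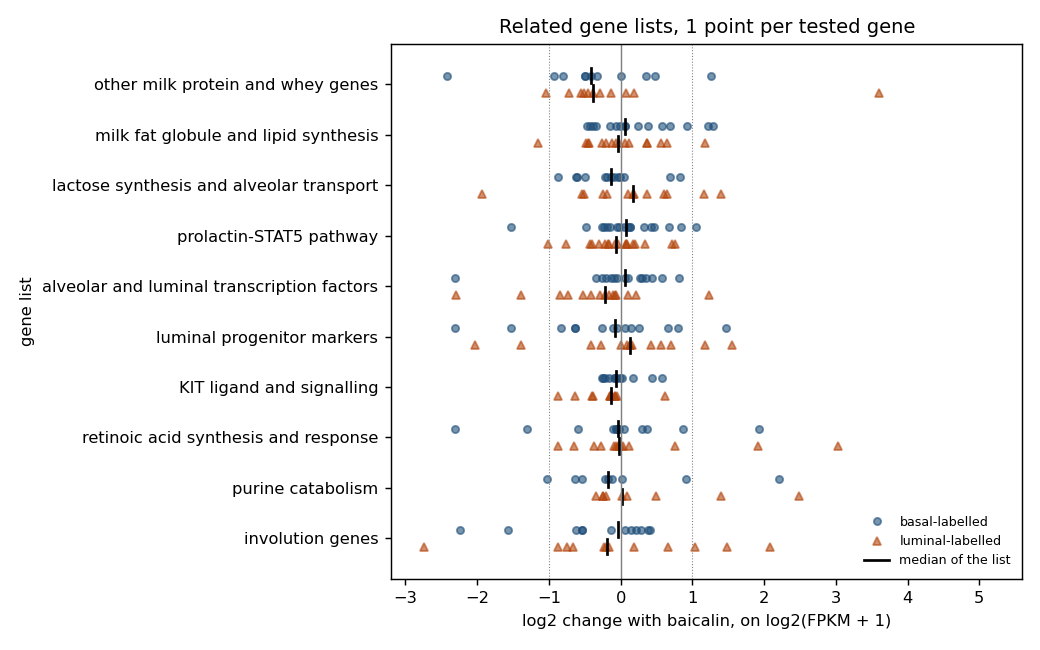
Log2 change with baicalin of each tested gene in 10 related gene lists, 1 point per gene and colour per label, with the median of each list marked. The list medians lie between -0.42 and 0.17, while single genes such as Muc1 at -2.42 and Saa3 at 3.60 lie far out.

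The genes whose pattern over the 4 libraries was most like that of a given gene were found by Euclidean distance of log2(FPKM + 1) after subtracting the mean of each gene, with up to 9185 genes compared. With 4 libraries this is a description. Nearest to Elf5 were Tm4sf1 at a distance of 0.205, Prlr at 0.223 and Atp1b1 at 0.280. Nearest to Kit were Gm10705 at 0.220, Slc29a1 at 0.308 and Gm25117 at 0.434. Prlr, the receptor that stands upstream of milk synthesis, was the one gene of the lists above among the neighbours of Elf5. Aldh1a3 was nearest to Nt5e at 0.320, Adam12 at 0.357 and Asprv1 at 0.425. Xdh was nearest to Snhg11 at 0.101, Pmaip1 at 0.158 and Asns at 0.164. Ltf, whose levels moved least, had the closest neighbours, Micall2 at 0.0390, Ifngr2 at 0.0549 and Zbtb38 at 0.0805.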

How the data were processed

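RNA was measured by sequencing in 4 libraries, 1 per condition. Stranded libraries of poly(A) RNA were aligned by the authors to GRCm38 with HISAT2, fragments were counted with featureCounts on Ensembl release 94, and the counts were deposited as FPKM. The submitters' processing notes also name Bowtie 0.12.2 and mm8. The sources used here do not give the strand setting of featureCounts, and no exon of the 10 genes overlaps another gene.

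Groups came from the sample labels. Exon lengths and positions came from GENCODE mouse release 21 on GRCm38. The fragments behind each FPKM were recovered from its product with exon length, which moves in steps of 1 fragment, and between 98.7% and 98.9% of genes with under 50 fragments came out whole within 0.1 fragment. Changes are log2((FPKM + 1)/(FPKM + 1)) on genes above 0 in all 4 libraries, with a threshold of 1. With 1 library per group no test was made. Ratios have 95% exact Clopper-Pearson intervals, and a count of 0 was set to 3 fragments for a lower bound. Near copies of the 10 genes were sought among annotated transcripts.

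All 10 genes are named. From each list, the 2 genes with the largest change among those at 1 FPKM or more in a library, and direct partners of the 10 genes, are named too, as are the 3 genes of most similar pattern among those reaching 5 FPKM. A gene that this rule names is not reported here. Some marker genes were named after their values were seen. Of 241 list entries, 239 were found by symbol. The 10 genes and the lists were chosen with earlier results of these data known. Other settings tried were a pseudocount of 0.1 or 0, 4 filters on low values, TPM scaling, centring on the median and a threshold of 2. The computation was tested on simulated data. Values were computed in Python 3.11.15 with scipy 1.17.1, pandas 2.3.3 and numpy 2.4.6, and plotted with matplotlib 3.10.9.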

Additional observations from a re-analysis of the deposited data

Results flagged for a closer look

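Aldh1a3 was the one gene of the 6 tested whose ratio of baicalin to DMSO lay on opposite sides of 1 under the labels with both counting intervals excluding 1. Its log2 change was -0.82 in the basal-labelled pair and 1.79 in the luminal-labelled pair, a difference of 2.60. For Ltf the signs also differed, with a basal-labelled interval that includes 1. The difference of Aldh1a3 was not tested, since each label has 1 library per treatment.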

How the results depend on the processing

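The count of tested genes among the 10 that passed the threshold was 4 in each baicalin comparison and 3 between the DMSO libraries, and stayed within 1 of these under the other pseudocounts, filters, scaling and centring. With a threshold of 2 the counts were 0 in the basal-labelled pair, 1 (Csn3) in the luminal-labelled pair and 0 between the DMSO libraries. Between the baicalin libraries the count was 0, but 2 (Csn3 and Kit) with a pseudocount of 0.1, with none, and with scaling to TPM. All 96 changes of single genes under the alternatives kept their sign, and 33 moved beyond the counting interval.

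The share of all genes past the threshold depended on the pseudocount and on which genes were counted. With no filter the share is over all 54446 genes, and with an FPKM of at least 1 over the genes reaching it in a library of the pair. In the other settings listed here the share is over the 17787 tested genes. In the basal-labelled pair it was 5.48%, and 13.6% with a pseudocount of 0.1, 21.1% with none, 9.55% with TPM, 1.996% with no filter, 8.54% with an FPKM of at least 1 and 0.973% with a threshold of 2. In the luminal-labelled pair these were 3.95%, 11.05%, 17.4%, 7.29%, 1.57%, 6.51% and 0.596%. Between the DMSO libraries they were 8.56%, 19.6%, 27.0%, 14.5%, 3.10%, 12.9% and 1.88%, and between the baicalin libraries 8.23%, 18.9%, 26.1%, 14.2%, 3.00%, 12.4% and 1.69%. Between the DMSO libraries the factor from FPKM to TPM differed by -0.11 on the log2 scale, and the median change of all genes was 0.01 with FPKM and -0.06 with TPM. No paired analysis was possible because each group holds 1 library.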
